A study of Rattus norvegicus with 8 samples.

Results

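The HMGB alarm proteins and the receptors that sense them were followed in the rat spinal cord after chronic stress. The set consists of 9 genes, Hmgb1, Hmgb2, Hmgb3, Tlr2, Tlr3, Tlr4, Myd88, Ager and Cd14, out of the 26514 distinct names that the probes of the array carry. All non-control probes bearing these gene names were taken, which gave 13 of 30367 probes. The genes were chosen by a stressed-control difference of Hmgb1 already seen in these data, and Hmgb1 also belongs to a gene network that the study drew from the same rats. The values of the 13 probes below are therefore a description, with no p attached, and how many of them passed a threshold supports nothing. L6S1 cord RNA from 4 stressed and 4 control male Wistar rats, 12 weeks old, was hybridised to Agilent 1-colour arrays, 1 for each rat. Stressed rats underwent water avoidance (WA) stress, in which a rat stays on a small platform surrounded by water, for 1 h per day on 10 days, and tissue was taken 24 h after the last session. Control rats were handled instead. WA stress serves as a model of chronic psychological stress with increased visceral pain, and the tissue is whole cord segments, freed of meninges, in which all cell types are mixed.

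HMGB1, HMGB2 and HMGB3 are small chromatin proteins with paired DNA-binding HMG boxes and an acidic tail. They bend DNA in the nucleus. HMGB1 that leaves stressed or dying cells acts as an alarm signal, which Toll-like receptors and the receptor RAGE, encoded by Ager, can sense. TLR2 and TLR4 sit at the cell surface and TLR3 recognises double-stranded RNA inside endosomes. CD14 helps to load ligands on TLR4 and TLR2, and MYD88 is the adaptor that carries the signal of most Toll-like receptors, though not of TLR3, to NF-kB. In the spinal cord microglia carry much of this sensing machinery, and spinal HMGB1 and TLR4 are studied in pain models.

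All 13 probes were well above background on all 8 arrays. Values are log2 signals minus the log2 of each array's 75th percentile, which was between 1750 and 2330 fluorescence units, so 0 is a fairly bright probe and levels of different probes are not comparable. Each array had 23005 to 24066 probes well above background, and precision is limited by there being 4 arrays in a group. Control replicate 2 stood apart from the remaining controls. On the first principal component, with 54.1% of the variance, it lay at 46.1, beside the stressed rats at 8.23 to 34.5, whereas control replicates 1, 3 and 4 lay from -56.2 to -39.4. The same split was seen in the 5′ minus 3′ value, the median over 1885 transcripts of the log2 signal of the probe nearer the 5′ end minus that nearer the 3′ end, centred over the arrays. That value was 0.22 in control replicate 2 and 0.09 to 0.17 in the stressed rats, but -0.30 to -0.18 in the other controls. Results are given with and without control replicate 2 and with the 5′ minus 3′ value as a covariate. Only control replicate 2 among the controls had a value like those of the stressed rats. The fit with the covariate therefore rests largely on that rat. The 8 arrays shared a slide, where row 1 held every stressed rat and row 2 every control rat, so row and stress cannot be told apart.

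The probes are 60 bases long, and how far each can separate Hmgb1 from its relatives is visible in their sequences. The first pair below shows the Hmgb1 probe at transcript position 666, located by the array design at chr16:37462822-37462877 on the plus strand of rn4, and a probe of the Hmgb1-like locus Hmg1l1 at position 712, at chr1:228589180-228589231 on the minus strand. Shifted by 1 base, they share 56 of 59 bases. Capitals mark the bases that differ, which are A3G, T6A and T12A counted from the 5′ end of the Hmgb1 probe with its base first.
Hmgb1 probe at 666: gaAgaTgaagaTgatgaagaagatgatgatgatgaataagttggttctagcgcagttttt
Hmg1l1 probe at 712: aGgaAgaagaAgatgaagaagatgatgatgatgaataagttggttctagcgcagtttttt
In its first reading frame this Hmgb1 probe holds 12 codons, all for aspartate or glutamate, then the stop codon taa and 21 bases beyond it. These codons are the end of the acidic tail. The second pair shows the Hmgb1 probe at position 486, at chr16:37462642-37462701 on the plus strand, and the Hmgb2 probe at position 611, at chr16:36131785-36132328 on the minus strand. The last 30 bases of the Hmgb1 probe match the first 30 of the Hmgb2 probe at 26 positions, and capitals mark the differences, G39A, C54T, A58C and A60T, counted in the same way.
Hmgb1 probe at 486: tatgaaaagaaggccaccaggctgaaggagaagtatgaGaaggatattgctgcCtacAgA
Hmgb2 probe at 611: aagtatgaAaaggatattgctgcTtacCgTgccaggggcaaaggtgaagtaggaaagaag

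The Hmgb2 probe at 611 covers 544 bases of the genome and so crosses an intron, as does the Ager probe at position 962, which covers 375 bases at chr20:4251214-4251588 on the minus strand. The 3 Hmgb1 probes lie 180 and 1021 bases apart in the transcript and 180 and 1013 bases apart at their rn4 location, which leaves no intron between them there. That location may not be the Hmgb1 gene itself. Of the 10 named genes next to Hmgb1 in the current RefSeq table, 5 on each side, the array places all on rn4 chromosome 12 and 0 on chromosome 16. The same table lists 18 Hmgb1 pseudogenes and 5 Hmgb1-like protein-coding genes in the rat, besides all 9 genes of the set. Signal of the Hmgb1 probes can thus include transcripts of such copies, and how much of it does was not tested. Exons and untranslated regions at the rn4 locations were not analysed here.

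Hmgb1 was higher in every stressed rat than in every control rat at each of its 3 probes, by 1.62-fold to 2.35-fold. At position 486, the control rats measured 0.04, 0.44, 0.10 and 0.12 (replicates 1 to 4), and the stressed rats 0.92, 0.80, 1.03 and 0.74. The highest control was replicate 2, and the groups did not overlap. The difference was 0.70 on the log2 scale (SE 0.11). The probe at position 666, over the acidic tail, gave -0.50, 0.35, 0.20 and 0.22 in control rats against 0.97, 0.92, 0.99 and 0.80 in stressed rats. Here control replicate 1 was the low value and the stressed rats were closely grouped, with a difference of 0.86 (SE 0.18), a 1.81-fold change. The third probe, at position 1687 (chr16:37463835-37463894, plus strand), lies furthest towards the 3′ end of the transcript. Its control values were -1.52, -0.48, -1.31 and -1.02, and its stressed values 0.05, 0.19, 0.12 and 0.24. The difference of 1.23 (SE 0.21) was the largest of the 13 probes, and control replicate 2 again lay nearest to the stressed rats. The study also measured Hmgb1 by quantitative RT-PCR, in the RNA used for the arrays and in further samples of the experiment. It reported a trend to higher Hmgb1 in stressed rats that was not significant.

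The size of the Hmgb1 difference moved with the 2 array-level measures. Without control replicate 2, the 3 probes differed by 0.78, 0.95 and 1.43, in the order of their positions. With the 5′ minus 3′ value as a covariate, the differences were 0.48, 0.59 and 0.76. The mean level of 5 oligodendrocyte marker genes split the rats like the first component, at 3.97, 3.98 and 4.10 in control replicates 1, 3 and 4, 4.80 in control replicate 2 and 4.57 to 5.01 in the stressed rats. The mean of the 5 astrocyte markers split in the same way, at 2.31 to 2.36, 2.69 and 2.48 to 2.79. Endothelial markers did so too, at -2.46 to -2.35, -1.96 and -2.24 to -1.94. The astrocyte markers did not move together. Gfap, Gja1 and Aqp4 differed by 0.81, 0.30 and 0.26, Slc1a3 and Aldh1l1 by -0.20 and -0.08, and none passed FDR 0.1. By RT-PCR the study reported lower GFAP in stressed rats. The neuron markers lay at 1.44 to 1.58 in control replicates 1, 3 and 4, at 1.79 in control replicate 2 and at 1.74 to 1.93 in stressed rats. Their part in the Hmgb1 difference was not tested. In whole tissue, fewer cells of a type and less RNA per cell cannot be told apart.

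Hmgb2, the paralogue best known from dividing cells, was higher in the stressed rats than in 3 of the 4 control rats. At position 611 the controls measured -2.37, -1.58, -2.37 and -2.25, and the stressed rats -1.46, -1.51, -1.32 and -1.72. Control replicate 2 lay within the stressed range, and the other controls lay below it. The difference was 0.64 (SE 0.19). The second probe, at position 757 (chr16:36131639-36131698, minus strand), gave -1.57, -1.03, -1.47 and -1.45 against -0.96, -0.98, -0.78 and -1.17. It showed the same arrangement with a difference of 0.41 (SE 0.14). Without control replicate 2 the 2 differences were 0.82 and 0.53, and with the 5′ minus 3′ covariate they were 0.19 and 0.12. A set of 5 measured genes of dividing cells, such as Top2a and Cdk1, had a mean level of -4.40 to -4.09 in control and -4.69 to -4.19 in stressed rats, and none of them passed the test.

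Hmgb3, the third family member, had overlapping groups. Its probe at position 1006 (chrX:157032565-157032624, plus strand) measured -0.47, -0.55, -0.42 and -0.30 in control rats and -0.37, -0.37, -0.40 and -0.26 in stressed rats. All but the highest stressed rat lay within the control range, and the difference was 0.08 (SE 0.08). The plot of the HMGB probes shows the step from Hmgb1, with separate groups, through Hmgb2, where only control replicate 2 bridges the gap, to Hmgb3.

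**Figure D1:**
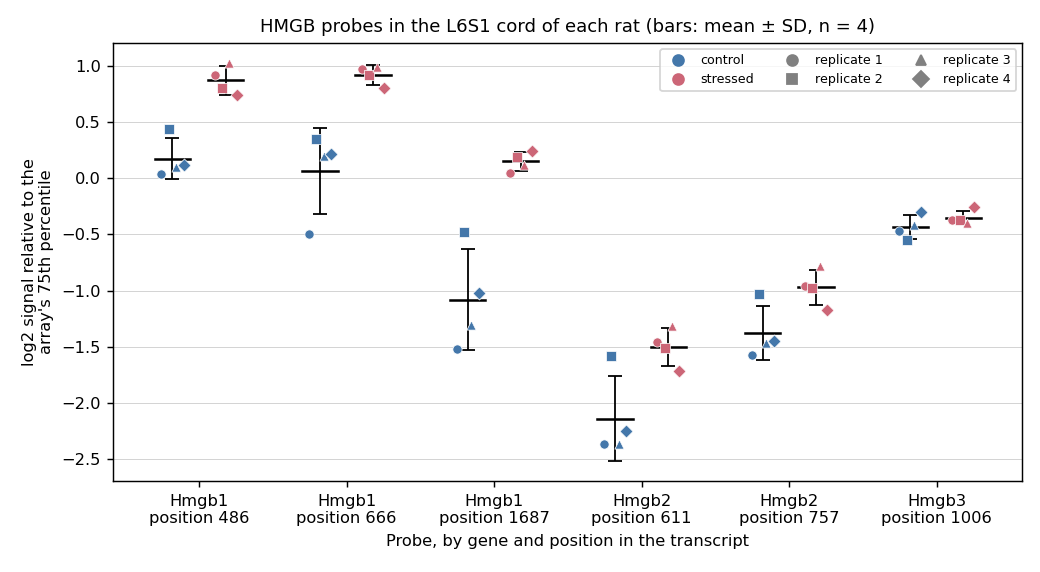
Log2 signal scaled to each array's 75th percentile (vertical axis) at the 6 HMGB probes (horizontal axis), for 4 control rats (blue) and 4 stressed rats (red), with marker shape for the replicate number and bars for the mean ± SD. The groups are apart at all 3 Hmgb1 probes, and control replicate 2 (blue square) is the highest control at both Hmgb2 probes.

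Among the Toll-like receptors, Tlr2 and Tlr4 had overlapping groups too. Tlr2, the receptor for bacterial lipoproteins, was measured at position 2366 (chr2:175608160-175608217, minus strand). Control rats gave -1.42, -1.09, -1.24 and -1.5, and stressed rats -1.5, -1.63, -1.10 and -1.38. The ranges overlapped almost fully, with a difference of -0.09 (SE 0.14). Tlr4, the receptor for lipopolysaccharide, was a dim probe with 58.7 to 121 fluorescence units at position 3015 (chr5:83577410-83577469, plus strand). Its values were -4.27, -4.97, -4.56 and -4.34 in controls and -4.0, -4.01, -4.0 and -4.81 in stressed rats. In 3 stressed rats Tlr4 was above all controls, while stressed replicate 4 lay below 3 of the 4 controls, and the difference was 0.33 (SE 0.23).

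Tlr3, the sensor of double-stranded RNA, differed far more between rats than between groups. At position 3054 (chr16:50126045-50126104, plus strand), the controls measured -1.27, -2.39, -3.25 and -3.22, and the stressed rats -3.38, -1.45, -1.32 and -3.37. At position 3280 (chr16:50126271-50126330, plus strand), the controls measured -0.78, -1.94, -2.91 and -2.88, and the stressed rats -3.03, -1.06, -0.87 and -2.97. Both probes placed the rats alike, with control replicate 1 and stressed replicates 2 and 3 high, control replicate 2 between, and the remaining 4 rats low. The lowest and highest rat were 4.32-fold apart at the first probe and 4.76-fold at the second. The SD within groups was 1.05 and 1.09, and only 1.02% and 0.819% of the 23678 tested probes had an SD as large or larger. The median SD over all tested probes was 0.20. The probes agreed closely across the 8 arrays (Pearson r = 0.999), as probes of the same transcript on the same RNA. The group difference was 0.15 (SE 0.65) at the first and 0.14 (SE 0.68) at the second. Markers of tissue next to the cord also varied between rats. The mean of the 3 Schwann cell markers, genes of peripheral nerve, was highest in control replicate 1, at 1.60, and next in stressed replicate 3, at -0.23. It was -0.72 in control replicate 3, where Tlr3 was low, and -2.12 in stressed replicate 2, where Tlr3 was high. The 3 markers of meningeal fibroblasts were likewise highest in control replicate 1, at -0.97, and stressed replicate 3, at -1.65. Their part in the Tlr3 values was not tested.

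The receptor RAGE, the co-receptor CD14 and the adaptor MYD88 had overlapping groups. Ager measured -3.75, -3.62, -4.24 and -3.88 in control rats and -3.37, -3.84, -3.52 and -3.98 in stressed rats, a difference of 0.19 (SE 0.18). In this comparison 2 of the 4 stressed rats lay above all controls and the others lay among them. With the 5′ minus 3′ covariate the difference turned to -0.04. Cd14, at position 1050 (chr18:29374990-29375049, minus strand), gave -2.90, -3.32, -3.20 and -3.33 in controls and -3.50, -3.40, -3.30 and -3.39 in stressed rats. Control replicate 1 was the highest, and 3 of the 4 stressed rats were below all controls, with a difference of -0.21 (SE 0.11). Myd88, at position 2065 (chr8:124299763-124299822, minus strand), measured -0.36, -0.28, -0.53 and -0.51 against -0.55, -0.53, -0.31 and -0.61. These ranges were nearly the same and the difference was -0.08 (SE 0.10).

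**Figure D2:**
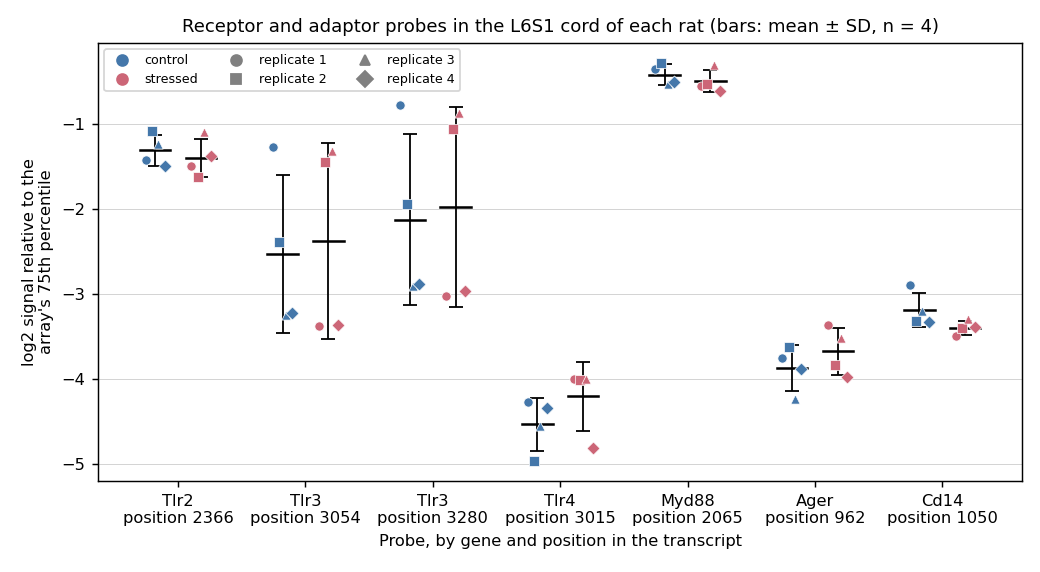
Log2 signal scaled to each array's 75th percentile (vertical axis) at the 7 receptor and adaptor probes (horizontal axis), for 4 control (blue) and 4 stressed rats (red), with marker shape for the replicate number and bars for the mean ± SD. The groups overlap at every probe, and the 2 Tlr3 probes show the same wide spread over the rats, with an SD within groups of 1.05 and 1.09.

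Over the set, the difference was above 0 at 10 of the 13 probes and below 0 at 3, with a median of 0.19. Over all tested probes the median was 0.06 and 59.6% were higher. In limma, with adjustment over all 23678 tested probes, 3 of the 13 passed FDR 0.1, all of Hmgb1 and all higher, and 0 passed FDR 0.05. Of all tested probes, 3.74% passed FDR 0.1, and 2.77% passed it and were higher. Separate groups were seen at 3 of the 13 probes, against 12.1% of all tested probes. As these contrasts led to the choice of the genes, nothing is read from the shares. The number of calls depended on the rats included, in the set as over all tested probes. Without control replicate 2, 5 of the 13 probes passed FDR 0.1, namely all Hmgb1 and Hmgb2 probes, but so did 42.4% of all tested probes. Leaving out any other rat left 0 or 1 of 13, beside 0 to 72 of all 23678 tested probes. In those fits the Hmgb1 differences were 0.64 to 0.74, 0.67 to 0.91 and 1.09 to 1.26, in the order of their positions. With the covariate 2 of the Hmgb1 probes passed, beside 10.1% of all tested probes.

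**Figure D3:**
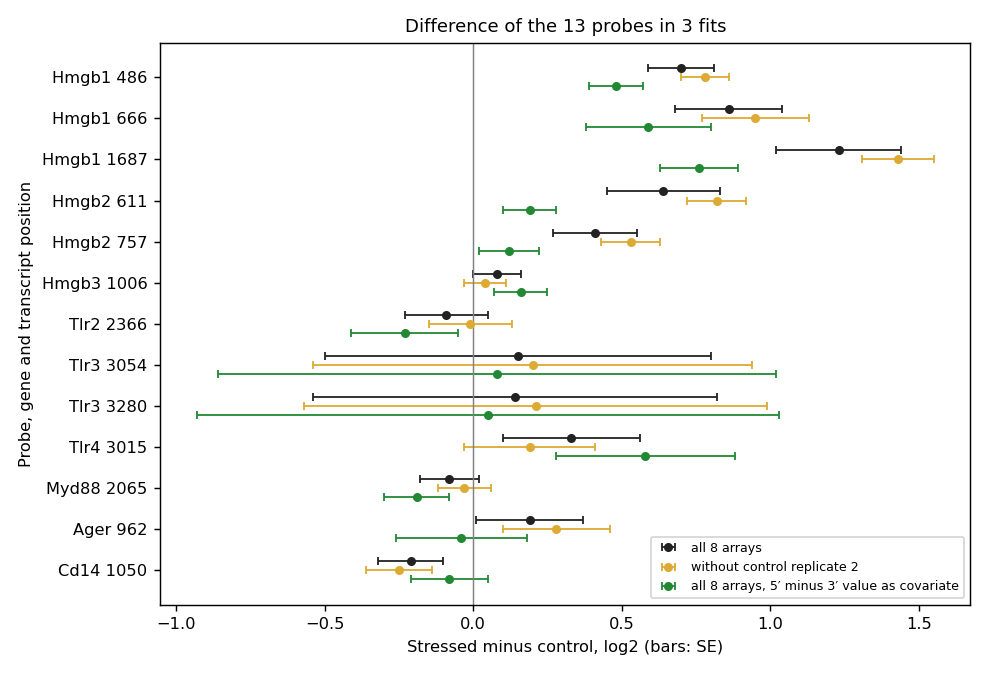
Difference of stressed minus control rats on the log2 scale (horizontal axis, bars give the SE) for each of the 13 probes (vertical axis) in 3 fits: all 8 arrays, without control replicate 2, and with the 5′ minus 3′ value of each array as a covariate. The Hmgb1 differences run from 0.48 to 1.43 over the 3 fits, and both Hmgb2 differences shrink to 0.19 and 0.12 with the covariate.

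Probes of Hmgb1-like loci, which the array names separately, also read higher in stressed rats. Of 9 probes whose description names an HMG protein 1 or 2 or an Hmgb1 pseudogene, 7 were tested, and 5 of them passed FDR 0.1, all higher and all without overlap of the groups, beside 2.77% and 12.1% of all tested probes. The differences ran from 0.27 to 0.91, with a median of 0.60. The 3 with the lowest adjusted p were LOC685240, LOC690521, which RefSeq now calls Hmgb1l3, and LOC685091. At LOC685240 (position 209, chr7:69922073-69922132, minus strand) the controls measured -0.23, -0.34, -0.30 and -0.34, and the stressed rats 0.41, 0.25, 0.27 and 0.25. Control replicate 2 was here among the lowest controls. The difference was 0.60 (SE 0.07, adjusted p = 0.0302 from limma). At LOC690521 (position 354) the controls measured -1.49, -1.22, -1.36 and -1.29, and the stressed rats -0.69, -0.64, -0.64 and -0.68, a difference of 0.68 (SE 0.08, adjusted p = 0.0302). At LOC685091 (position 371) the controls gave -2.0, -1.90, -1.91 and -1.78 against -1.22, -1.24, -0.99 and -1.10, a difference of 0.76 (SE 0.08, adjusted p = 0.0302). At all 3, control replicate 2 lay nearer to the other controls than to any stressed rat. With the 5′ minus 3′ covariate their differences were 0.63, 0.57 and 0.74. All 3 passed (adjusted p = 0.039, 0.039 and 0.0405 from limma), beside 10.1% of all tested probes. That fit rests largely on control replicate 2, so it is no check apart from where this rat lay.

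The other 4 tested loci had higher adjusted p. LOC364873 differed by 0.47 (SE 0.12, adjusted p = 0.0982) and RGD1560584 by 0.44 (SE 0.11, adjusted p = 0.0982), and with the covariate these became 0.23 and 0.22 (adjusted p = 0.148 and 0.151). LOC681776 and LOC500210, with differences of 0.27 and 0.91, did not pass (adjusted p = 0.30 and 0.152). The probe of Hmgb1-ps2 was above background on 3 arrays and that of RGD1560664 on 0, so neither was tested. Without control replicate 2 all 7 passed, beside 42.4% of all tested probes. Without any other rat between 0 and 3 did, beside 0 to 72 of all 23678 tested probes. Hmg1l1, which RefSeq now lists as the pseudogene Hmgb1-ps33, was added after its values were seen. Its probe at 712 measured -0.42, 0.39, 0.29 and 0.33 in controls and 0.94, 0.89, 1.0 and 0.82 in stressed rats, a difference of 0.77 (SE 0.18, adjusted p = 0.091). The low control replicate 1 also stood out at the Hmgb1 probe at 666 with which it shares 56 of 59 bases. A second Hmg1l1 probe, at position 470, differed by 0.63 (SE 0.09, adjusted p = 0.0417). Apart from Hmg1l1, these loci were chosen by their descriptions. Of their probes, only that of Hmg1l1 at 712 overlapped an Hmgb1 probe in the sequence search. Whether the others also read Hmgb1 transcripts was not tested, so their values are not taken as separate evidence from those of Hmgb1.

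**Figure D4:**
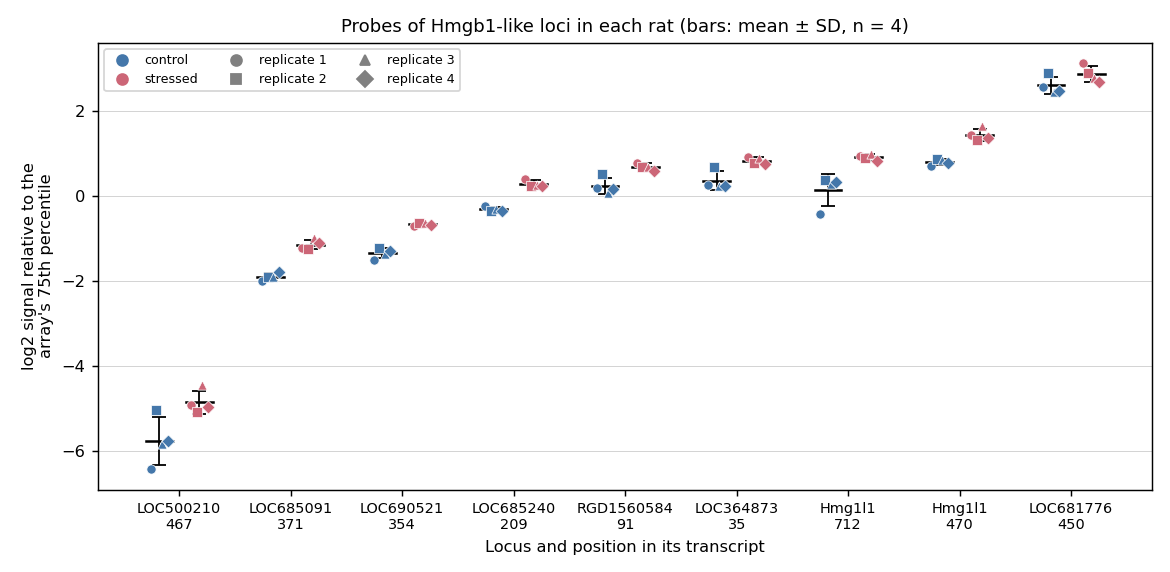
Log2 signal scaled to each array's 75th percentile (vertical axis) at 7 tested probes of Hmgb1-like loci and 2 of Hmg1l1 (horizontal axis, locus and transcript position), for 4 control (blue) and 4 stressed rats (red), with bars for the mean ± SD. The groups are apart at all but LOC500210 and LOC681776.

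Around the set, 81 genes of the pathway in 7 lists were examined, of which 70 were on the array and 56 were tested by their brightest probe. At FDR 0.1, 2 rose and 2 fell, beside 3.74% called of all tested probes. At an unadjusted p below 0.05, 6 were higher and 8 lower, beside 20.3% of all tested probes. The median difference was -0.06, with 21 genes higher and 35 lower. Among the other HMG proteins, Hmga1, an architectural chromatin protein of the HMGA family, was the only 1 of 10 tested genes to pass. Its controls measured -4.72, -3.81, -4.58 and -4.27 and its stressed rats -3.41, -3.45, -3.65 and -3.48, a difference of 0.85 (SE 0.19, adjusted p = 0.0848). All stressed rats were above all controls, of which replicate 2 was the nearest. Nucleosome-binding Hmgn1, Hmgn2 and Hmgn3 differed by 0.01, -0.17 and -0.05 and did not pass.

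Few of the remaining Toll-like receptors were measurable. Of 8 on the array, Tlr5, Tlr8, Tlr9, Tlr10 and Tlr11 were above background on 0 arrays and Tlr12 on 2. Tlr7, an endosomal sensor of single-stranded RNA, differed by 0.40 (SE 0.15, adjusted p = 0.212) and Tlr6, the partner of TLR2, by 0.12 (SE 0.13, adjusted p = 0.601). Neither passed. None of the 7 tested co-receptors and chaperones passed either (0 at an unadjusted p below 0.05). Cd180, a relative of TLR4, had the smallest p, with -0.31 (SE 0.15, adjusted p = 0.27), while Ly96, which encodes the TLR4 partner MD-2, differed by 0.00 (SE 0.10).

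Among 17 tested adaptors and kinases, only Ripk1, a kinase of the TLR3 and TNF receptor pathways, passed FDR 0.1. Controls gave -2.34, -2.53, -2.17 and -2.18 and stressed rats -2.70, -2.76, -2.86 and -2.65, a difference of -0.44 (SE 0.10, adjusted p = 0.0877). The groups did not overlap at this probe, at position 4004. Its second probe, at position 2134, did not pass, at -0.06 (adjusted p = 0.883). At an unadjusted p below 0.05, 5 of the 17 were lower and 1 was higher, beside 20.3% of all tested probes in either direction. Irak1 and Irak4, kinases that MYD88 recruits, differed by 0.34 and 0.03 and did not pass, nor did Traf6, at -0.06. Ikbke differed by -0.31 (SE 0.11, adjusted p = 0.19) and did not pass. By RT-PCR the study reported a trend to higher IKBKE in stressed rats that was not significant. Of 5 tested inhibitors, Sigirr, an inhibitory member of the IL-1 receptor family, fell and Cyld, a deubiquitinase that restrains NF-kB, rose. Sigirr measured -2.55, -2.74, -2.57 and -2.59 in controls and -3.04, -2.97, -2.96 and -2.93 in stressed rats, a difference of -0.36 (SE 0.07, adjusted p = 0.0683). Cyld measured -2.29, -2.26, -2.11 and -2.02 in controls and -1.79, -1.80, -1.81 and -1.83 in stressed rats, a difference of 0.36 (SE 0.08, adjusted p = 0.0812). Both had separate groups. With the 5′ minus 3′ covariate Sigirr and Cyld passed (adjusted p = 0.0717 and 0.0703), beside 10.1% of all tested probes. Hmga1, at 0.42, and Ripk1, at -0.27, did not (adjusted p = 0.103 and 0.155).

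The other ligands and receptors of HMGB1 and RAGE gave no call among 11 tested genes (2 at an unadjusted p below 0.05). The smallest p was that of Havcr2, which encodes the HMGB1-binding receptor TIM-3, with 0.53 (SE 0.17, adjusted p = 0.162). S100b, a RAGE ligand of astrocytes, differed by 0.06 (SE 0.09). None of 4 tested target genes of NF-kB passed (0 at an unadjusted p below 0.05). Ccl2 differed by -0.25 (SE 0.26, adjusted p = 0.598), Il1b by 0.19 (SE 0.29), Tnf by 0.13 (SE 0.26) and Nfkbia by -0.14 (SE 0.15), while Il6 was above background on 0 arrays and Cxcl1 on 1. Without control replicate 2, 21 of the 56 pathway genes passed, beside 42.4% of all tested probes. Without any other rat 0 did, beside 0 to 72 of all 23678 tested probes.

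**Figure D5:**
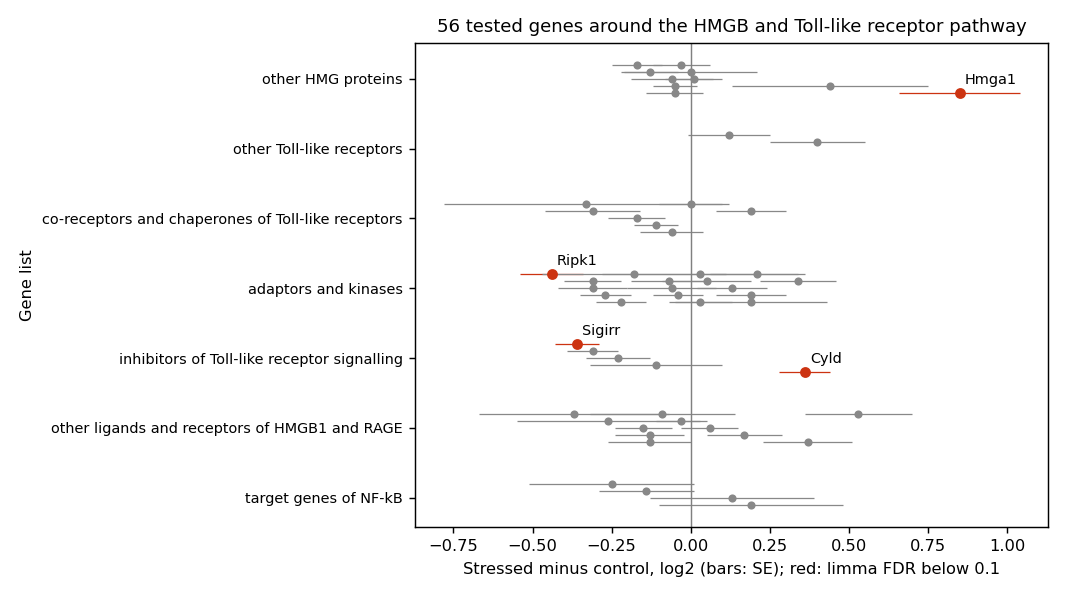
Difference of stressed minus control rats on the log2 scale (horizontal axis, bars give the SE) for the 56 tested pathway genes in 7 lists (vertical axis), each by its brightest probe. Genes that passed FDR 0.1 are red and named: Hmga1 at 0.85 and Cyld at 0.36 rose, and Ripk1 at -0.44 and Sigirr at -0.36 fell.

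Microglial marker levels overlapped between the groups. All 9 microglial markers, among them Aif1, Cx3cr1 and P2ry12, were above background on all 8 arrays, and 0 passed FDR 0.1 in limma (0 at an unadjusted p below 0.05). Their mean level was 0.48 to 0.78 in control and 0.46 to 0.77 in stressed rats. Blood leukocyte markers were low, with Ccr2, Elane and Itgal of 7 genes above background on 0 arrays and a mean of -7.02 to -5.88 in control and -6.65 to -5.68 in stressed rats. Neuron, astrocyte and oligodendrocyte markers were above background on all arrays. Mog of the oligodendrocyte list and Pecam1 of the endothelial list passed FDR 0.1, with differences of 0.90 and 0.40 (adjusted p = 0.0721 and 0.0927).

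The gene symbols whose pattern over the 8 arrays was most like that of Hmgb1 at position 486 were Stk3, Znf652, Rgs5, Pdgfc and Tmed5, with Pearson r of 0.992, 0.992, 0.991, 0.991 and 0.990. All 5 were higher in stressed rats, by 0.46 to 0.86. Such likeness was common, since 268 of 23678 tested probes (1.13%) had r above 0.95, and the points share the 2 groups and the 5′ minus 3′ value. Within the set, r with this probe was 0.923 and 0.949 for the other Hmgb1 probes, 0.944 and 0.937 for those of Hmgb2, and 0.243 for Hmgb3. It ranged from -0.679 for Cd14 to 0.572 for Ager among the receptors and Myd88.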

How the data were processed

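One array per rat, 4 stressed and 4 control, was read. Per the file headers, the authors deposited scanner files made by Agilent Feature Extraction 10.7.3.1, in which the processed signal is a fluorescence intensity with background subtracted within each array. Scaling between arrays was found neither there nor in the rounded intensity table of the series that the authors deposited. Probe positions are on rn4. The study names dChip for its own later steps, and its normalization is not given in the sources used here. Groups came from the sample titles.

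Control spots were left out, outlier spots were set to missing, and log2 intensities minus the 75th percentile of each array were averaged over the spots of a probe. Probes above background on at least 4 arrays were tested. The 2 groups were tested against each other with limma 3.58.1 in R 4.3.3 with data.table (version 1.17.8), two-sided, with Benjamini-Hochberg adjustment over 23678 probes at FDR 0.1 and 0.05. P-values set the group difference against the spread between the rats of a group, and that difference includes any effect of slide row. The fit was tested on simulated data with noise drawn independently for each probe and array. That test does not cover differences shared by a whole array, such as those of control replicate 2. Probe overlaps are ungapped, of at least 30 bases and 85% identity, among 30367 probes. Gene names were updated from the GRCr8 RefSeq list, in which 3 of 10 Hmgb1-like loci were found.

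The genes, gene lists, marker lists and tests were chosen with earlier results of these data known. Named were all probes of the 9 genes, pathway genes past FDR 0.1 or, where a list had none, that with the smallest p, and the 5 symbols most correlated with the brightest Hmgb1 probe. Further pathway genes named by role were picked after their values were seen. Alternatives were a normexp correction (offset 50), quantile scaling, the 75th percentile over detected probes, the deposited value table, no dim filter or a filter over all 8 arrays, robust estimation with a variance trend, array weights, replicate block, the 5′ minus 3′ covariate (probes at least 300 bases apart) and leaving out each array.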

Additional observations from a re-analysis of the deposited data

Results flagged for a closer look

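At 2 of 26 combinations of probe and group, a rat lay far from the other 3 by Dixon's test for 4 values (gap over range), which chance gives in about 1 of 20. For Hmgb2 at position 611, control replicate 2, at -1.58, lay above the other controls, with a gap over range of 0.841. For Tlr4 at position 3015, stressed replicate 4, at -4.81, lay below the other stressed rats, with 0.985.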

How the results depend on the processing

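With all arrays, 885 of all tested probes, 3 of the 13 probes of the set and 4 of the 56 pathway genes passed FDR 0.1. These counts became 229, 2 and 0 with normexp, 11983, 6 and 26 with array weights, and 2390, 2 and 8 with the 5′ minus 3′ covariate. Without a filter on dim probes 3010 probes passed. Leaving out 1 array in turn gave 0 to 10036 probes, 0 to 5 probes of the set and 0 to 21 pathway genes. The upper ends came from leaving out control replicate 2, and without any other array the highest counts were 72, 1 and 0. With the replicate block, limma called 0 of all probes, 0 of the set and 0 pathway genes, with 4292 probes at an unadjusted p below 0.05 and fewer degrees of freedom. The deviations of same-numbered arrays correlated at 0.10, 0.12, -0.09 and 0.31, and not every array correlated best with its own number, so the numbers were not taken as pairs. The Hmgb1, Hmgb2, Hmgb3, Tlr2, Tlr4, Myd88 and Cd14 differences kept their direction in all 18 alternatives. Tlr3 turned to -0.09, -0.08, -0.16 and -0.20 at position 3054, and to -0.12, -0.11, -0.16 and -0.23 at position 3280, without control replicates 3 and 4 and stressed replicates 2 and 3, in that order, and with 1 array left out the highest values, 0.57 and 0.59, came without control replicate 1. Ager turned to -0.04 with the 5′ minus 3′ covariate, and the cause was not tested. For dim probes such as Tlr4 and Ager, signal over background limits the precision.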
